A study of Mus musculus with 12 samples.

Results

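A panel of 10 genes used to recognise blood stem and progenitor cells was followed through RNA from 12 mouse bone marrow sorts: Kit, Flt3, Procr, Cd48, Slamf1, Meis1, Hlf, Mecom, Hoxa9 and Myb. They were taken as a list of symbols, matched to Ensembl identifiers, and all 10 were found among the 55421 genes of the count table. All 10 also passed the filter on low counts that left 15999 genes for testing.

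Blood formation starts from hematopoietic stem cells that live in the marrow beside blood vessels and divide into progenitors for each lineage. KIT, on stem and progenitor cells, and FLT3, on progenitors, are receptor tyrosine kinases that bind stem cell factor and FLT3 ligand. CD150 (Slamf1), CD48 and the endothelial protein C receptor (Procr) are surface proteins that help to separate stem cells from progenitors by flow cytometry. MEIS1, HLF, MECOM, HOXA9 and MYB are transcription factors that maintain the stem and progenitor state, and several of them also act in megakaryocytes or other blood lineages.

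The study asked how cardiovascular disease alters the endothelial cells of the bone marrow, and each of the 12 mice, aged 20 weeks, gave 1 RNA-seq library. Controls were naive C57BL/6J mice (n = 3). Hypertension was induced in C57BL/6J mice by angiotensin II from implanted minipumps for 8 weeks (n = 3). Atherosclerosis was studied in Apoe-/- mice (Apoe tm1Unc) on a western-type diet for 10 weeks, so genotype and diet cannot be told apart (n = 3). Myocardial infarction (MI) was induced in C57BL/6J mice by permanent ligation of a coronary artery, and the labels place collection at day 2, whereas the study's text gives a later day (n = 3). The same 3 controls served every comparison with controls, so those comparisons are not independent, and libraries carry the replicate numbers 2, 3 and 4 in each group.

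The cells were lineage depleted and sorted as TER-119-CD41-CD45-CD31hiSCA-1+ endothelial cells, but their RNA did not carry that phenotype. Ptprc, which encodes CD45, was read at 463 to 814 CPM (counts relative to library size, scaled by TMM), against 17.2 to 31.8 CPM for Pecam1 (CD31) and 2.00 to 4.19 CPM for Cdh5, the endothelial cadherin. The 18 endothelial markers summed to 168 to 301 CPM in a library, and the 10 neutrophil markers to 23891 to 84132 CPM. From these levels, which were not divided by exon length, the libraries are described here as sorted bone marrow. Apoe was read at 450.5 to 1503 CPM outside the Apoe-/- group and 7.28 to 14.8 CPM within it, as the labels require. Libraries held 17007088 to 25136936 counts, at which 3 counts correspond to 0.116 to 0.176 CPM. Replicate 2 of the MI group stood apart: it had the highest neutrophil sum (84132 CPM) and the lowest dendritic cell (80.0 CPM), mast cell and basophil (1164 CPM) and B cell precursor (224 CPM) sums of the 12. Replicate 2 of the atherosclerosis group also stood apart, with the lowest median correlation with the other libraries (0.969). Its neutrophil (23891 CPM) and erythroid (7251 CPM) sums were the lowest of the 12. Its mast cell and basophil (7257 CPM) and B cell precursor (1153 CPM) sums were the highest. In bulk RNA, fewer cells that carry a transcript and less transcript in each cell cannot be told apart.

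Levels of different genes can be set side by side only per length of exon, and on that scale the 10 genes spanned a wide range. Cd48 was the highest at a mean of 64.4 CPM per kb over the 12 libraries, followed by Myb at 18.4 CPM per kb. Kit had 4.46 and Flt3 2.71 CPM per kb. A middle group of Hoxa9 (1.29 CPM per kb), Meis1 (1.11), Hlf (0.980) and Slamf1 (0.825) came next, and Procr (0.410) and Mecom (0.116) were lowest. Each step held in 11 or 12 of 12 libraries, except within the middle group, where Hoxa9 exceeded Meis1 in 6, Meis1 exceeded Hlf in 7 and Hlf exceeded Slamf1 in 7 of 12. Before division by exon length, Myb and Cd48 alone supplied 64.1% to 77.3% of the summed CPM of the 10 genes, a share that also depends on length. Among all tested genes, Cd48 lay at the 94.4 percentile of level per length, Kit at the 55.3 and Mecom at the 3.16 percentile.

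**Figure D1:**
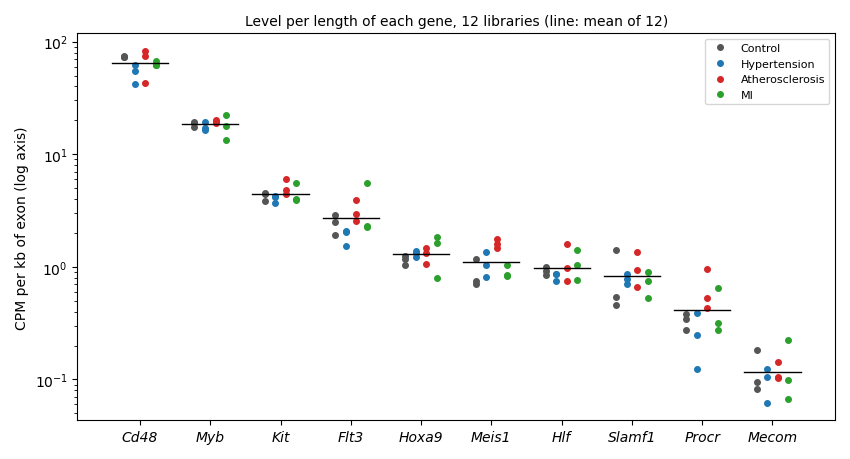
Level per length of the 10 genes in 12 libraries, in CPM per kb of exon on a log axis, with 1 point per library colored by group and a line at the mean of 12. Cd48 and Myb lie above the other 8 genes in every library, and the points of Hoxa9, Meis1, Hlf and Slamf1 overlap.

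Of the receptors, Kit (ENSMUSG00000005672, chr5:75574916-75656722, plus strand, GRCm38) was read in control replicates 2, 3 and 4 at 39.1, 40.0 and 34.4 CPM and in hypertension at 37.1, 38.0 and 32.8 CPM. Atherosclerosis libraries held 39.4, 42.9 and 54.1 CPM, and MI libraries 49.0, 35.6 and 35.0 CPM. Replicate 4 of the atherosclerosis group and replicate 2 of the MI group were high, and each disease group overlapped the controls. The log2 fold change against controls was -0.074 (SE 0.17) in hypertension, 0.26 (SE 0.17) in atherosclerosis and 0.074 (SE 0.17) in MI.

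Flt3 (ENSMUSG00000042817, chr5:147330741-147400489, minus strand), which is on multipotent and lymphoid progenitors and on dendritic cell precursors, was more variable. Control libraries held 11.8, 18.0 and 15.6 CPM, and hypertension libraries 12.9, 12.5 and 9.51 CPM. The atherosclerosis libraries held 15.7, 18.3 and 24.4 CPM. In MI, replicate 2 held 34.2 CPM, the highest of all 12, and replicates 3 and 4 held 14.1 and 13.8 CPM, inside the range of controls. The MI group mean was 20.7 CPM ± 11.7 (SD, n = 3) against 15.1 ± 3.10 in controls. The log2 fold change in MI was 0.45 (SE 0.32), and -0.11 without replicate 2, so this library sets its direction. The antisense gene Gm26597 overlaps Flt3 and was read at 5 to 25 counts.

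Among the stem cell surface markers, Cd48 (ENSMUSG00000015355, chr1:171682009-171705258, plus strand) encodes a protein that stem cells lack and most progenitors and mature leukocytes carry. The control libraries were close together, at 89.3, 86.9 and 87.6 CPM. Hypertension libraries held 74.0, 65.2 and 50.2 CPM and MI libraries 74.3, 80.0 and 74.2 CPM, all below every control. Atherosclerosis libraries scattered at 50.9, 88.2 and 98.3 CPM on both sides of the controls. In hypertension the mean was 1.39-fold lower than in controls, a log2 fold change of -0.48 (SE 0.21, 95% interval -0.94 to -0.016), which did not pass correction (adjusted p = 0.951 by edgeR's quasi-likelihood test, adjusted after Benjamini and Hochberg for all genes tested). Leaving out any 1 library gave -0.61 to -0.33. The neutrophil sum was also below every control in hypertension (25736 to 41582 against 48333 to 65659 CPM). With that sum as a covariate the log2 fold change of Cd48 was -0.15. The sum did not overlap between these groups, so its part cannot be told apart from hypertension and was not tested. In MI, where the neutrophil sum was 50571 to 84132 CPM, the log2 fold change of Cd48 was -0.21 (SE 0.21).

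Slamf1 (ENSMUSG00000015316, chr1:171767127-171801184, plus strand) lies 61869 bases beyond Cd48 on the same chromosome and strand, in the cluster of SLAM receptor genes. It was low, at 8.69, 2.82 and 3.34 CPM in controls and 4.31, 4.82 and 5.31 CPM in hypertension. Atherosclerosis libraries held 8.36, 4.11 and 5.81 CPM and MI libraries 5.52, 3.23 and 4.63 CPM. The highest and the lowest library of all 12 were both controls, so no disease group left the control range. The pair of neighbours did not move together over libraries (Pearson's r = -0.35 between log2 CPM, n = 12).

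Procr (ENSMUSG00000027611, chr2:155751117-155755471, plus strand) was near the floor, with 5 to 44 counts in a library. Control libraries held 0.561, 0.704 and 0.776 CPM and hypertension libraries 0.499, 0.788 and 0.250 CPM. In atherosclerosis the values were 1.96, 0.881 and 1.07 CPM, all above every control, and in MI they were 0.552, 1.32 and 0.637 CPM. The atherosclerosis mean was 1.91-fold that of controls (log2 fold change 0.93, SE 0.47, 95% interval -0.084 to 1.95, adjusted p = 0.860 by edgeR's quasi-likelihood test). Without replicate 2 of the atherosclerosis group the log2 fold change was 0.52.

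Of the transcription factors, Meis1 (ENSMUSG00000020160, chr11:18879817-19018985, minus strand), a TALE homeodomain protein that binds DNA with HOX and PBX partners, had the lowest p of the 10 genes. The 3 atherosclerosis libraries held 18.7, 15.4 and 16.7 CPM, and no other library exceeded 14.2 CPM. Control libraries held 12.4, 7.91 and 7.37 CPM, hypertension libraries 8.63, 10.9 and 14.2 CPM, and MI libraries 8.83, 8.68 and 11.0 CPM. The atherosclerosis mean was 16.9 CPM ± 1.63 (SD, n = 3) and the control mean 9.22 ± 2.76, a ratio of 1.84. The log2 fold change was 0.88 (SE 0.24, 95% interval 0.37 to 1.39) and ranked 111 of 15999 by p (0.00262), with an adjusted p of 0.377 by edgeR's quasi-likelihood test. It ran from 0.74 to 1.15 with 1 library left out. The call changed with the filter: with no filter on low counts the adjusted p was 0.0413, whereas the likelihood-ratio test of edgeR gave 0.123 and DESeq2 gave 0.112. Transcripts that overlap Meis1 on either strand were read at 33 counts or fewer in any library.

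Mecom (ENSMUSG00000027684, chr3:29951296-30548008, minus strand), the EVI1 and PRDM3 locus, was the lowest of the 10 genes per length, with 15 to 58 counts. Of 7 annotated genes that overlap Mecom, 5 lie on the same strand. Among these, Gm38197 was read at 0 to 14 counts, in total equal to 14.8% of the Mecom counts. How such overlaps affect the Mecom counts was not tested. Control libraries held 1.18, 1.03 and 2.25 CPM and MI libraries 0.828, 2.80 and 1.22 CPM. The values of the hypertension group were 0.772, 1.53 and 1.30 CPM, and those of the atherosclerosis group 1.29, 1.29 and 1.78 CPM. All groups overlapped, and the log2 fold changes against controls were -0.32 (SE 0.46), -0.047 (SE 0.46) and 0.11 (SE 0.46) in hypertension, atherosclerosis and MI. The 95% interval in hypertension reached -1.32 and that in MI 1.10.

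Hlf (ENSMUSG00000003949, chr11:90336536-90390895, minus strand), a PAR bZIP factor, was tightly grouped in controls (6.61, 6.12 and 5.70 CPM) and in hypertension (5.72, 5.04 and 5.71 CPM). It was spread in atherosclerosis, at 10.7, 6.52 and 4.99 CPM, and in MI, at 5.08, 6.88 and 9.44 CPM. The coefficient of variation was 7.43% in controls, 7.14% in hypertension, 40.0% in atherosclerosis and 30.7% in MI.

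Hoxa9 (ENSMUSG00000038227, chr6:52223100-52231089, minus strand) held 5.83, 6.55 and 6.94 CPM in controls and 6.81, 7.71 and 7.41 CPM in hypertension. Atherosclerosis libraries held 8.14, 7.40 and 5.96 CPM and MI libraries 4.47, 9.15 and 10.3 CPM. MI held both the lowest and the highest library of the 12, and the log2 fold changes against controls lay between 0.15 and 0.30 (SE 0.27 in each).

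Myb (ENSMUSG00000019982, chr10:21124935-21160984, minus strand), a factor that progenitors of several lineages need to divide, varied little outside the MI group. It held 169, 156 and 173 CPM in controls, 146, 153 and 174 CPM in hypertension and 179.8, 171 and 171 CPM in atherosclerosis. The MI libraries again spread the most, at 119, 160.3 and 201 CPM, with replicate 2 the lowest of the 12 and replicate 4 the highest. The log2 fold changes against controls were -0.072, 0.069 and -0.051 (SE 0.17 in each), with 95% intervals inside -0.45 to 0.44.

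**Figure D2:**
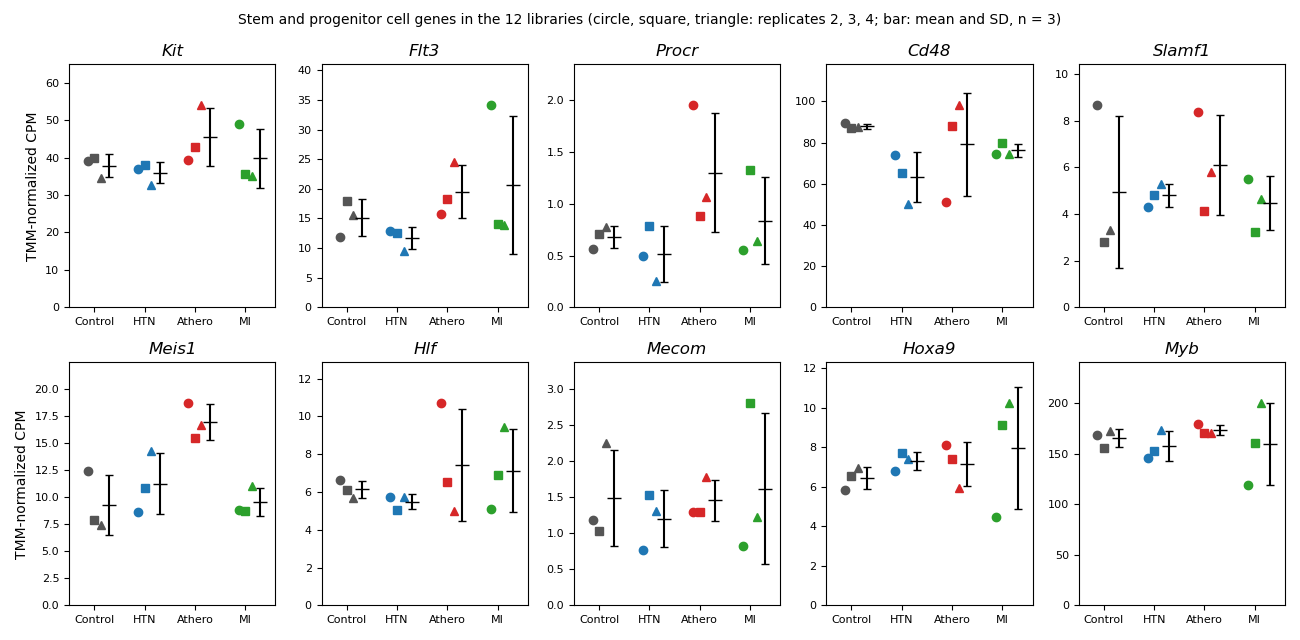
Level of each gene in CPM (vertical axes from 0) in the 3 libraries of each group, with the group mean and SD beside them. The 3 atherosclerosis libraries of Meis1 lie above all others, the hypertension and MI libraries of Cd48 lie below the controls, and MI replicate 2 has the highest Flt3 and the lowest Hoxa9 and Myb.

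Promoter sequence was available for all 10 genes from RefSeq (GRCm38.p6), from 250 bases before to 50 bases after each start. A set of 5 motifs named for the factors among the 10 genes was searched on both strands: TGACAG for MEIS1, TGATTTAT for HOXA9, TTACNTAA for HLF, AACTGNC for MYB and AAGATAA for MECOM. The promoters of Flt3 and Mecom held the MYB motif (2 of 10 genes, against 14.5% of 27025 genes), and that of Mecom also held the MEIS1 motif (1 of 10, against 21.6%). None held the HOXA9 (1.15% of genes), HLF (2.72%) or MECOM motif (4.05%). The 3 promoters shown are those with a motif (in capitals, on whichever strand it was found) and that of Meis1, the gene with the lowest p, which held none of the 5. They are chr5:147400440-147400739 for Flt3, chr3:30013155-30013454 for Mecom, where a second annotated start holds no motif, and chr11:19018920-19019219 for Meis1, each on the minus strand and written from 5′ to 3′.
Flt3: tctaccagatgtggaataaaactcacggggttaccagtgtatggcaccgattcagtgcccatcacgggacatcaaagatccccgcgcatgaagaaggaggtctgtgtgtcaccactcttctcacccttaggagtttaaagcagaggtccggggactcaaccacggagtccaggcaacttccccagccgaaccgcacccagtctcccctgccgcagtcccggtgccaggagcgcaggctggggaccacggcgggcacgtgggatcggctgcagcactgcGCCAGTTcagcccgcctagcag
Mecom: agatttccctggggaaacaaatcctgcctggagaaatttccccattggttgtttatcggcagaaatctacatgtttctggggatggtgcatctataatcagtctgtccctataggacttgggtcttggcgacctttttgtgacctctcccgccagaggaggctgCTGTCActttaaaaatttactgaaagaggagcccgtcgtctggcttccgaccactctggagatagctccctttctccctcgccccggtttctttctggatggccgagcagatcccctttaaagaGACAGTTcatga
Meis1: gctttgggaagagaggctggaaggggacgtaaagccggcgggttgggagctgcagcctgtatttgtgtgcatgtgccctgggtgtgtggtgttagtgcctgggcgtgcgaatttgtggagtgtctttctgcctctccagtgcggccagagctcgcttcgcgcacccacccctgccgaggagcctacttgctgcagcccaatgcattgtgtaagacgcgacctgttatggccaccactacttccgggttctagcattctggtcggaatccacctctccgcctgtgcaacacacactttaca
The promoters differed in base composition, from 47.3% G and C for Cd48 to 75.0% for Myb, against a median of 52.7% over all genes. Neither the level per length nor the group values were tested against these motifs.

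Against controls, none of the 10 genes was called in any disease (adjusted p under 0.05, edgeR's quasi-likelihood test). In hypertension 0 of 10 were called, as were 0 of all 15999 genes (0%). At an unadjusted p under 0.05 the count was 1, Cd48, against 3.71% of all genes, and edgeR's likelihood-ratio test and DESeq2 also called 0. Hypertension was lower than control for 8 of 10 genes and higher for Meis1 and Hoxa9 (2 of 10, against 48.1% of all genes), with a median log2 fold change of -0.12 against -0.013 over all genes tested. The median was -0.20 without control replicate 3. The libraries did not overlap for Cd48 alone, 1 of 10 genes lower, against 7.81% of all genes.

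In atherosclerosis 0 of 10 genes were called, against 23 of 15999 (0.144%), with 1 at an unadjusted p under 0.05, Meis1, against 5.97% of all genes. The likelihood-ratio test and DESeq2 again called 0. Values were higher than in controls for 8 of 10 genes, all but Mecom and Cd48, against 51.9% of all genes, and the median log2 fold change was 0.27 against 0.012 over all genes. Meis1 and Procr did not overlap the controls, 2 of 10 genes higher, against 5.06% of all genes. With no filter on low counts 1 gene was called, Meis1. With the neutrophil sum as a covariate 6 of 10 genes were higher and the median was 0.13, and without replicate 2 of the atherosclerosis group the median was 0.078.

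In MI 0 of 10 genes were called, as were 0 of 15999 (0%), with 0 of 10 at an unadjusted p under 0.05 against 2.80% of all genes, and neither other tool called any. Values were higher than in controls for 7 of 10 genes, all but Myb, Cd48 and Slamf1, against 50% of all genes, with a median log2 fold change of 0.091 against 0.00022 over all genes. Leaving out MI replicate 4 or control replicate 3 left 5 of 10 genes higher, with medians of 0.0204 and 0.0295, and without control replicate 2 the median was 0.21. Cd48 was the 1 gene whose libraries did not overlap, lower in MI, against 4.59% of all genes.

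**Figure D3:**
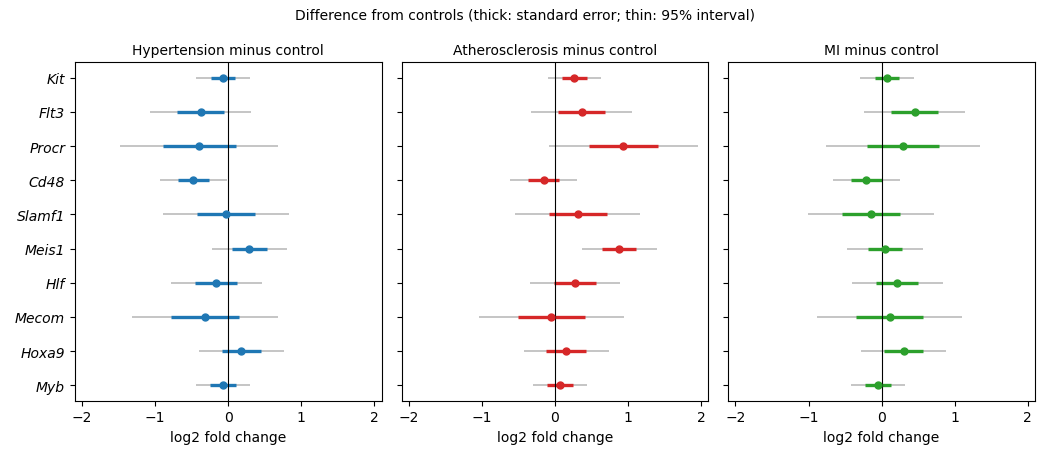
Log2 fold change of the 10 genes in hypertension, atherosclerosis and MI against controls (horizontal axes), with the standard error (thick) and 95% interval (thin) from edgeR. The intervals of Meis1 in atherosclerosis (0.37 to 1.39) and Cd48 in hypertension (-0.94 to -0.016) lie on one side of 0.

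The disease groups were also set against each other. Between atherosclerosis and hypertension, 9 of 10 genes were higher in atherosclerosis, all but Hoxa9, with a median log2 difference of 0.34 against 0.031 over all genes, and against 54.6% of all genes higher. Kit, Flt3, Meis1 and Procr had no overlap, 4 of 10 genes higher in atherosclerosis, against 5.81% of all genes. Log2 fold changes were 0.34 (SE 0.17) for Kit, 0.74 (SE 0.32) for Flt3, 0.59 (SE 0.24) for Meis1 and 1.33 (SE 0.48) for Procr, and that of Kit was 0.19 without atherosclerosis replicate 4. None was called (0 of 10, against 10 of 15999 or 0.0625%), the smallest adjusted p being 0.672 for Procr by edgeR's quasi-likelihood test. Without filter, by the likelihood-ratio test and by DESeq2 the count was also 0, and 3 of 10 had an unadjusted p under 0.05 against 5.94% of all genes.

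Between MI and atherosclerosis, Meis1 was 1.78-fold lower in MI, with no overlap (1 of 10 genes lower, against 7.44%). The log2 fold change was -0.83 (SE 0.24, 95% interval -1.35 to -0.32), with an adjusted p of 0.181 by edgeR's quasi-likelihood test, and 0 of 10 genes were called against 43 of 15999 (0.269%). With no filter on low counts the adjusted p was 0.0368, and by the likelihood-ratio test 0.0828 and by DESeq2 0.0606. At an unadjusted p under 0.05 the count was 1 of 10, against 12.7% of all genes. Values were higher in MI for 3 of 10 genes, against 47.7% of all genes, with a median log2 difference of -0.089 against -0.021. The median was -0.20 without MI replicate 2, -0.21 without MI replicate 4, -0.14 without atherosclerosis replicate 3 and -0.27 with the neutrophil sum as a covariate.

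Between MI and hypertension, Flt3 and Cd48 were higher in MI with no overlap, 2 of 10 genes, against 9.34% of all genes. The log2 fold change was 0.83 (SE 0.32) for Flt3 and 0.27 (SE 0.21) for Cd48. Flt3 had 0.26 without MI replicate 2, and Cd48 had 0.13 without hypertension replicate 4 and -0.15 with the neutrophil sum as a covariate. No gene was called, of the 10 or of all 15999 (0%), and 1 of 10 had an unadjusted p under 0.05 against 8.41% of all genes. Values were higher in MI for 8 of 10 genes, against 50.8% of all genes, with a median log2 difference of 0.21 against 0.0068. Without hypertension replicate 4 the median was 0.13, and without MI replicate 3 it was 0.14. Within each gene's order of the 4 group means, the only neighbours whose libraries did not overlap were atherosclerosis above hypertension for Meis1 and MI above hypertension for Cd48. For Cd48 the gap was very narrow, 74.2 CPM in the lowest MI library against 74.0 CPM in the highest of hypertension.

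Across the 12 libraries the 10 genes fell into loose sets. These correlations describe libraries that share 4 groups and their scaling, with no test. Kit and Flt3, the receptors, had the highest pairwise Pearson's r of log2 CPM, 0.84, and 0.81 to 0.88 with any 1 library left out. Hoxa9 and Myb followed at 0.72, but at 0.44 without MI replicate 2. Meis1 and Slamf1 had 0.69. The lowest was Kit with Hoxa9 at -0.65, or -0.51 without MI replicate 2, so libraries with more Kit tended to have less Hoxa9.

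Slamf1 varied with the transcripts of megakaryocytes, the platelet-forming cells. Its log2 CPM had r = 0.90 (Spearman's rho 0.89, n = 12) with the summed level of 10 megakaryocyte markers, and r = 0.81 without the 2 libraries farthest from the median of that sum. Control replicate 2 had the highest Slamf1 (8.69 CPM) and the highest megakaryocyte sum (1811 CPM), and control replicate 3 the lowest of both (2.82 and 419 CPM). The 3 genes most like Slamf1 among 13426 with a mean of at least 1 CPM were Selp (r = 0.96), which encodes the P-selectin of platelets and endothelium, Rab27b (0.96), which serves secretion of platelet granules, and Alox12 (0.95), the platelet lipoxygenase. Meis1 had r = 0.60 with the same sum, and also 0.60 without the 2 farthest libraries. With the mast cell and basophil sum Meis1 had 0.59, but 0.43 without the 2 libraries farthest in that sum. The megakaryocyte sum was 906 to 1157 CPM in atherosclerosis and 419 to 1811 CPM in controls. Of its 10 markers, 9 were higher in atherosclerosis, against 51.9% of all genes, with a median log2 fold change of 0.33. The part of this sum in the Meis1 difference was not tested.

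**Figure D4:**
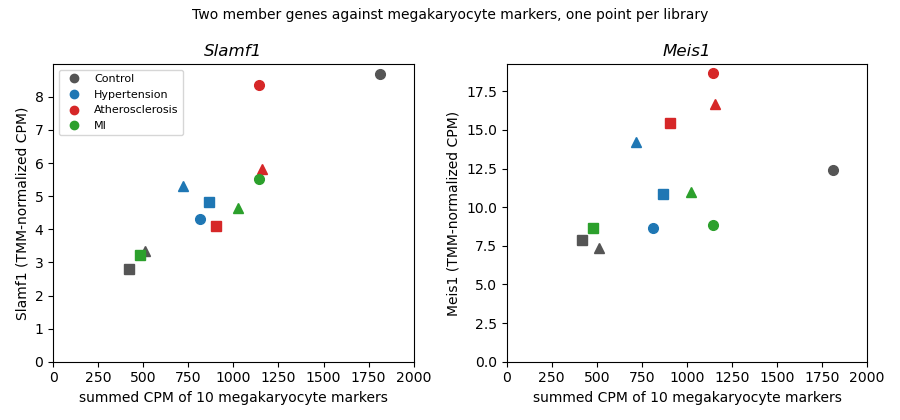
Slamf1 and Meis1 (vertical axes, CPM) against the summed CPM of 10 megakaryocyte markers, 1 point per library. Slamf1 follows the sum across all groups (r = 0.90), whereas the 3 atherosclerosis libraries of Meis1 lie above others of like sum.

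Flt3 had r = 0.81 with the summed monocyte markers, but 0.47 without the 2 farthest libraries, and Cd48 had 0.71 with the neutrophil sum, but 0.063 without them. MI replicate 2 had the highest monocyte sum (1994 CPM) of the 12. The libraries left out for the neutrophil sum were the lowest in it, atherosclerosis replicate 2 (23891 CPM) and hypertension replicate 4 (25736 CPM). Cd48 was also lowest in these libraries, at 50.9 and 50.2 CPM. Mecom had its highest r, 0.60, with the endothelial sum, but 0.41 without the 2 farthest libraries. Clec14a, an endothelial membrane lectin, was among the 3 genes most like Mecom (r = 0.86), after Sorbs2 (0.89) and Slc27a3 (0.86).

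The genes most like the others were, for Kit, Plekhm2 (r = 0.93), Sertad1 (0.92) and Lgmn (0.91), and for Flt3, Trp53inp1 (0.92), Tmem86a (0.91) and Dirc2 (0.90). For Meis1 they were Ripor1 (0.92), Sh3bgrl2 (0.91) and Zfp30 (0.89). Hlf was most like Gm26692 (0.96), Gm45110 (0.89) and Pgam2 (0.87), and Procr was most like Nbea (0.88), Matn2 (0.88) and Cd200r4 (0.85). Hoxa9 had Hdhd3 (0.95), Lix1l (0.90) and 0610037L13Rik (0.86) as its nearest, and Myb had Igip (0.91), Cbfa2t3 (0.87) and D030028A08Rik (0.87). Cd48 was nearest to Msl2 (0.96), Lmf1 (0.95) and Hnmt (0.95). Each is the highest of 13426 candidates over 12 libraries and describes these libraries only.

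**Figure D5:**
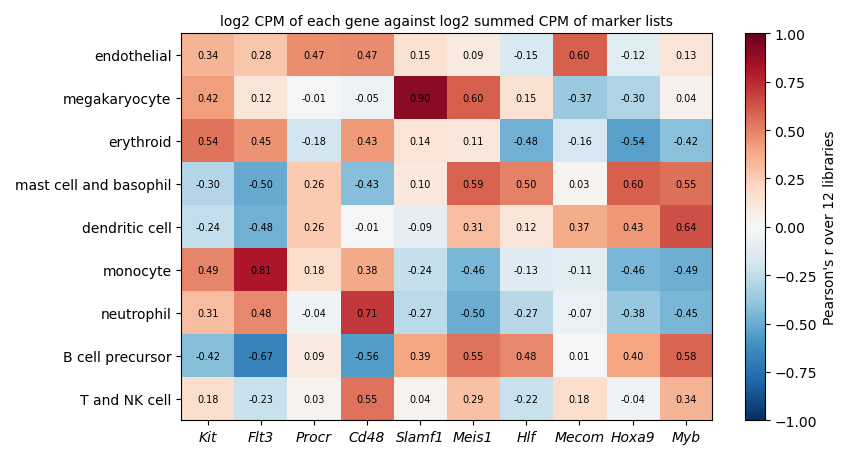
Pearson's r over 12 libraries between the log2 CPM of each gene (columns) and the log2 summed CPM of 9 lists of cell type markers (rows), on a scale from -1 to 1. Slamf1 with megakaryocyte markers (0.90) and Flt3 with monocyte markers (0.81) are the highest values.

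Of 18 other stem cell genes, 17 were tested and none was called against controls. Of all genes, 0% were called in hypertension and in MI and 0.144% in atherosclerosis. In atherosclerosis 14 of the 17 were higher, against 51.9% of all genes, with a median log2 fold change of 0.20. In hypertension 6 were higher (median -0.065), against 48.1% of all genes, and in MI 10 (median 0.025), against 50%. Among those of the 17 with the highest level, Itga2b (CD41), a megakaryocyte marker too, had a log2 fold change of 0.71 in atherosclerosis. Egr1, an immediate early transcription factor, had 0.13.

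Of 18 transcription factors of progenitors, all tested, 1 was called in atherosclerosis against controls (0.144% of all genes were), Gata2, a factor of stem cells, mast cells and megakaryocytes. Its libraries held 35.0, 44.0 and 46.6 CPM in atherosclerosis and 20.2, 18.4 and 22.1 CPM in controls, without overlap. Hypertension libraries held 26.5, 25.4 and 30.9 CPM and MI libraries 18.1, 22.3 and 25.8 CPM. Gata2 rose in atherosclerosis by a log2 fold change of 1.05 (adjusted p = 0.0342, edgeR's quasi-likelihood test) and was lower in MI than in atherosclerosis (-0.92, adjusted p = 0.0410). The call against controls was lost in the fit on those 2 groups alone (adjusted p = 0.206) and without 5 of the 6 libraries in turn, and that against MI was lost in the 2-group fit too (adjusted p = 0.357), with the neutrophil sum as a covariate (adjusted p = 0.0925) and without 5 of the 6 libraries in turn. The mast cell and basophil sum was 2727 to 7257 CPM in atherosclerosis, against 2154 to 3331 CPM in controls. Its part in the Gata2 difference was not tested.

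Of 11 genes of the SLAM family and its adaptors, with Cd48 and Slamf1 among them, 10 were lower in hypertension and 9 in MI. Their median log2 fold changes were -0.18 and -0.37, and none was called. Of all genes, 48.1% were higher in hypertension and 50% in MI, with medians of -0.013 and 0.00022. In both, 0% of all genes were called. The neutrophil sum was below every control in hypertension, and the sum of 9 T and NK cell markers was 34.9 to 48.6 CPM in MI against 51.4 to 66.8 CPM in controls. Their part in these differences was not tested. In atherosclerosis 7 of 11 were higher (median 0.16), against 51.9% of all genes, of which 0.144% were called. Cd84 was read at a mean of 85.6 CPM, Slamf7 at 29.1 and Ly9 at 16.4 CPM. Of 11 HOXA genes only Hoxa5, Hoxa7, Hoxa9 and Hoxa10 passed the filter. Hoxa7 was read at a mean of 4.31 CPM, and Hoxa5 and Hoxa10 at 1.04 and 0.880 CPM. Of 9 MEIS, PBX and PKNOX genes, the partners of HOX proteins, all were tested and none was called, and beside 0.88 for Meis1 the log2 fold change in atherosclerosis was 0.35 for Meis2 and -0.58 for Meis3.

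Among ligands and partners of the surface proteins, Kitl (stem cell factor) was read at a mean of 18.5 CPM and Flt3l at 5.32 CPM, and Thbd, which with EPCR serves protein C activation, at 22.5 CPM. Proc itself had 0 counts in all 12 libraries. Of 9 such genes, 7 were tested and none was called. Of 15 genes of KIT and FLT3 signalling, led in level by Ptpn6, Akt1, Stat3 and Ptpn11, none was called. Their median log2 fold change was -0.053 in hypertension, 0.0012 in atherosclerosis and -0.077 in MI. Few of all genes were called in any comparison of groups (0% to 0.269%).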

How the data were processed

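RNA was measured in 12 libraries, 1 per mouse, in 4 groups of 3 taken from the labels. The authors aligned single-end reads from strand-specific polyA libraries to GRCm38.p6 with STAR 2.7.3a and deposited raw counts per Ensembl gene, without normalization. Which strand column of the counts was taken is not given in the sources used here, so overlapping genes on opposite strands are uncertain. Positions came from GENCODE (GRCm38), which holds 55240 of the 55421 genes, and promoters from RefSeq.

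In R 4.3.3, edgeR 4.0.16 was run with filterByExpr, TMM and 1 coefficient per group (8 residual degrees of freedom), and contrasts were tested by glmQLFTest, two-sided, with Benjamini-Hochberg adjustment over 15999 genes. The steps were tested on simulated data. Per-length levels divide CPM by summed exon length, and log2 CPM used a prior count of 0.5. The p-values weigh group differences against the variation between these mice, with an estimate of spread that all groups share. Whether the mice were independent cohorts is not stated. Alternatives were the likelihood-ratio test, DESeq2 1.42.0, RLE scaling, other filters, fits on 2 groups, a replicate block, immunoglobulin and hemoglobin genes left out, marker sums as covariates, and each library left out.

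The 10 genes and all lists were chosen with earlier results of these data known. Named besides the 10 genes were the 3 most correlated genes of each (mean CPM of at least 1) and, from each list, the called genes or up to 4 of highest level. Meis2, Meis3, Hoxa5, Hoxa10, Flt3l and Proc were named as relatives or ligands of the 10 genes after their values were seen. Some genes that this rule names are not reported here.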

Additional observations from a re-analysis of the deposited data

How the results depend on the processing

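The count of the 10 genes called stayed at 0 in every comparison under each alternative except 1: with no filter on low counts it was 1 (Meis1) in atherosclerosis against controls and 1 (Meis1) in MI against atherosclerosis. Of 954 values of the 10 genes under the alternatives, 895 kept their direction and their side of the threshold, 2 passed it and 57 changed direction. For each change named here the cause was not tested. Of all genes, edgeR's likelihood-ratio test called 81 in atherosclerosis and 1 in MI against controls, 70 between atherosclerosis and hypertension, 2 between MI and hypertension and 274 between MI and atherosclerosis, and DESeq2 called 79, 1, 71, 12 and 294 in that order. With no filter 170 were called in hypertension, 432 in atherosclerosis and 130 in MI against controls, 235 between atherosclerosis and hypertension, 422 between MI and hypertension and 790 between MI and atherosclerosis. At an adjusted p under 0.1 the counts were 19 between atherosclerosis and hypertension and 152 between MI and atherosclerosis. In fits on 2 groups alone 4 were called in atherosclerosis and 1 in MI against controls and 3 between MI and atherosclerosis, and 66 in the last with immunoglobulin and hemoglobin genes left out. The erythroid sum as a covariate gave 40 in atherosclerosis against controls, 20 between atherosclerosis and hypertension and 407 between MI and atherosclerosis, and the neutrophil sum gave 1 in hypertension and 30 between atherosclerosis and hypertension. Leaving out 1 library gave 2 to 34 in atherosclerosis against controls, 3 to 36 between atherosclerosis and hypertension and 8 to 93 between MI and atherosclerosis.

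Same-numbered libraries of different groups did not deviate together more than others (r from -0.26 to 0.27, over 0.1 in 5 of 18 pairs, against -0.28 to 0.35 and 11 of 36 for other pairs). With 3 libraries in each group these correlations cannot show whether the numbers pair the mice, and the labels do not say. With the replicate number as a block, 7 of all genes were called in atherosclerosis against controls and 22 between MI and atherosclerosis, and Slamf1 in hypertension had 0.14, with no other direction changed among the 10 genes.

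The direction of some log2 fold changes turned. With no filter Myb had -0.0082 between MI and hypertension. With the erythroid sum as a covariate Mecom had 0.029 in atherosclerosis, Hoxa9 0.079 between atherosclerosis and hypertension and Cd48 0.044 between MI and atherosclerosis. With the neutrophil sum, hypertension gave 0.11 for Kit and -0.063 for Hoxa9, and atherosclerosis gave -0.054 for Hlf, -0.033 for Hoxa9, -0.056 for Myb and 0.072 for Cd48. That covariate gave Hoxa9 0.030 between atherosclerosis and hypertension, Kit -0.099, Cd48 -0.15 and Slamf1 0.041 between MI and hypertension, and Flt3 -0.34, Hlf 0.34 and Myb 0.039 between MI and atherosclerosis.

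With each library left out in turn, some log2 fold changes crossed 0. In hypertension against controls they ran from -0.31 to 0.64 for Slamf1 and -0.54 to 0.13 for Mecom. In MI against controls they ran from -0.56 to 0.56 for Mecom, -0.42 to 0.53 for Slamf1, -0.089 to 0.31 for Meis1, -0.10 to 0.16 for Kit, -0.11 to 0.67 for Flt3, -0.25 to 0.12 for Myb, -0.20 to 0.52 for Procr and -0.039 to 0.41 for Hlf. In atherosclerosis against controls the ranges were -0.25 to 0.40 for Mecom, -0.084 to 0.49 for Hlf and -0.34 to 0.096 for Cd48. Between MI and atherosclerosis the ranges were -0.48 to 0.31 for Flt3, -0.31 to 0.30 for Hlf, -0.30 to 0.13 for Cd48, -0.31 to 0.054 for Myb, -0.51 to 0.47 for Mecom and -0.072 to 0.44 for Hoxa9. Between atherosclerosis and hypertension the range was -0.12 to 0.084 for Hoxa9. Between MI and hypertension they were -0.17 to 0.19 for Myb, -0.028 to 0.23 for Kit, -0.24 to 0.74 for Mecom, -0.29 to 0.077 for Slamf1 and -0.10 to 0.41 for Hoxa9. Procr (5 to 44) and Mecom (15 to 58) had the lowest counts of the 10 genes.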

Other observations

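In MI all 10 B cell precursor markers were lower than in controls (median log2 fold change -0.62), as were 9 of 10 dendritic cell markers (-0.61) and all 9 T and NK cell markers (-0.44). None was called by edgeR's quasi-likelihood test. Of all genes, 50% were higher in MI than in controls and 0% were called. The B cell precursor sum was 224 to 450.3 CPM in MI and 470.1 to 663 CPM in controls, without overlap. In atherosclerosis all 12 erythroid markers were higher than in controls (median 0.36), although their sum overlapped (7251 to 20471 against 7307 to 13653 CPM). Of 10 genes of myeloid precursors, 9 were lower (median -0.49), with Elane, the neutrophil elastase of promyelocytes, at -0.59. None of either list was called. Of all genes, 51.9% were higher in atherosclerosis than in controls and 0.144% were called.

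Of the mast cell and basophil markers, 7 of 8 tested were higher in atherosclerosis than in controls (median 0.80) and 8 of 8 were lower in MI than in atherosclerosis (median -1.07). Of all genes, 51.9% were higher in atherosclerosis than in controls. Between MI and atherosclerosis 47.7% were higher in MI, and 0.269% were called. The mast cell and basophil sum overlapped in both comparisons, at 2727 to 7257 CPM in atherosclerosis, 2154 to 3331 in controls and 1164 to 3214 in MI. Fcer1a, which encodes the alpha chain of the high-affinity IgE receptor, fell in that second comparison by 1.44 on the log2 scale (adjusted p = 0.0378, edgeR's quasi-likelihood test). Its libraries held 26.0, 39.8 and 24.5 CPM in atherosclerosis and 7.73, 14.4 and 11.2 CPM in MI, without overlap. The call was lost in the fit on those 2 groups (adjusted p = 0.249) and without each of 4 of the 6 libraries in turn. Kit, which mast cells also carry, had r = -0.30 (Spearman's rho -0.091) with the mast cell and basophil sum over the 12 libraries. Without the 2 libraries farthest from the median of that sum, r was 0.0056.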
